A study of Mus musculus with 4 samples.

Results

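The miR-103 and miR-107 family of the mouse comprises 5 mature arms, the 3p guides mmu-miR-107-3p and mmu-miR-103-3p and the 5p arms mmu-miR-107-5p, mmu-miR-103-1-5p and mmu-miR-103-2-5p. They were taken by name from the 1966 miRNA in the deposited count tables, and all 5 were found. Cortical neurons were cultured from embryos of WT and of APP/PS1 mutant (TgAD) mice, and 2 small RNA libraries per genotype (WT 1, WT 2, TgAD 1 and TgAD 2) were sequenced, to compare the miRNA profile of a mouse model for Alzheimer's disease with that of WT. The TgAD mice (B6C3-Tg APPswe, PSEN1dE9 85Dbo/J) express Swedish-mutant chimeric APP and human presenilin 1 without exon 9 from prion promoter elements of the mouse, which drive both transgenes chiefly in neurons of the brain and spinal cord. Both genotypes were handled alike, dissected at E16.5 according to the labels and kept for 5 days in culture with no treatment. The neurons were plated in medium with serum and then moved to serum-free medium. Those of each embryo were cultured separately and genotyped afterwards. The transgenes are not miRNA, so these files offer no check of the genotype.

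miRNA are cut as a duplex from a hairpin, and 1 arm, the guide, is loaded onto an Argonaute protein and represses mRNA that pair with its seed, while the other arm, the passenger, is mostly degraded. miR-103 and miR-107 lie in introns of the pantothenate kinase genes, which encode the enzymes that start the synthesis of coenzyme A, and they are known for a role in lipid and glucose metabolism and for repression of Dicer. In Alzheimer's disease, miR-107 is known for an early decrease in the cortex and for targeting BACE1, the protease that makes the first cut in the release of amyloid peptide.

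In GENCODE M21, an annotation of the build GRCm38 that the authors mapped to, Mir107 (ENSMUSG00000065594.1) covers bases 34820687 to 34820773 of chromosome 19, minus strand. It falls within an intron of Pank1 that runs from 34813818 to 34821099, intron 5 in 2 and intron 4 in 1 of the 3 transcripts that span it. Mir103-1 (ENSMUSG00000065553.1) covers bases 35782396 to 35782481 of chromosome 11, plus strand, in intron 5 of the single annotated transcript of Pank3, which runs from 35781708 to 35783447. Mir103-2 (ENSMUSG00000065563.1) covers bases 131288052 to 131288137 of chromosome 2, plus strand. All 7 Pank2 transcripts that span it hold it in an intron, which in 5 of them runs from 131287598 to 131293398. Each hairpin is transcribed in the direction of its host gene.

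The 3 hairpins are shown whole because the counts of the family turn on how little separates them. They are given 5′ to 3′ as in RefSeq (GRCm38.p6), with the 5p and 3p arms in capitals.
Mir107: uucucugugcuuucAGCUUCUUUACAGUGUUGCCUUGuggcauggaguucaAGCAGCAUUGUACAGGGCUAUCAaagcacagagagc
Mir103-1: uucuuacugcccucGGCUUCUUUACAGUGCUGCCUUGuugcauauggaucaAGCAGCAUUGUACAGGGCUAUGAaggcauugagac
Mir103-2: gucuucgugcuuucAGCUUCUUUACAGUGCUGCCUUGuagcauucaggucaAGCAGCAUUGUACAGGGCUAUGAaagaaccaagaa

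All 5 arms are 23 nucleotides long. In the mature arms below, the seed, bases 2 to 8 from the 5′ end, is in capitals.
miR-107-3p: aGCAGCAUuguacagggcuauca
miR-103-3p: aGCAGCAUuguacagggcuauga
miR-107-5p: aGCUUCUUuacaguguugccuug
miR-103-1-5p: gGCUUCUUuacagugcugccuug
miR-103-2-5p: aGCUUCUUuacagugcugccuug

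The guides share the seed GCAGCAU and the 5p arms share the seed GCUUCUU. Among the 1675 listed miRNA that matched a RefSeq mature sequence, no other arm had either seed. Between miR-107-3p and miR-103-3p there was 1 difference, C22G, with positions counted from 1 at the 5′ end and the base of miR-107-3p given first. A read from a guide that stops before position 22 therefore reads the same for all 3 loci. miR-107-5p and miR-103-2-5p differed at U16C, and miR-103-1-5p and miR-103-2-5p at G1A. The mature miR-103-3p is identical at both of its loci, and the Mir103-1 and Mir103-2 hairpins share an unbroken run of 27 bases over it, from 3 bases upstream of its start. Among these loci, no full-length miR-103-3p read can thus be placed at only 1, whereas a full-length miR-107-3p read can. The authors mapped without mismatch, and how reads with several placements were counted is not given in the sources used here.

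The reads counted on miRNA ranged from 2070204 to 4811010 per library, and 3 reads, taken as the floor of detection, corresponded to between 0.746 and 1.28 CPM, the TMM-scaled read level used throughout. The share of reads that fell on miR-99a-5p, the most abundant miRNA, was 15.8% and 16.7% in WT and 27.0% and 31.8% in TgAD libraries. In a second deposited table of normalized values, the column named for the first WT library held the counts of the first TgAD library for 100% of its 674 miRNA, that named for the second WT library those of the first WT library, and that named for the first TgAD library those of the second TgAD library. Its last column matched none of the count tables. The results below rest on the count tables and their labels, and the values under the other table's column names are given with the processing. As a check of the cell type, the summed level of 4 neuronal miRNA was 19950 to 34250 CPM in WT and 60346 to 85234 CPM in TgAD libraries, with 1 of the 4, miR-128-3p, called higher and making up most of the sum. Another, miR-138-5p, lay lower in TgAD (1213 and 650 CPM) than in WT libraries (1653 and 1224 CPM) but was not called. Within this list miR-124-3p had only 14 reads over the 4 libraries, and miR-9-5p was listed at 0 in all 4. The miRNA of endothelium (2 of 2) and of the oligodendrocyte lineage (3 of 3) were also listed at 0 throughout. Since miR-124-3p and miR-9-5p were near or at 0 in these neurons, a value of 0 does not show that a cell type was absent. Those of smooth muscle and pericytes summed to 718 to 901 CPM in WT and 756 to 826 CPM in TgAD libraries. Blood and myeloid miRNA summed to 1320 to 1341 CPM in WT and 660 to 970 CPM in TgAD libraries, with 1 of 5 called lower and 1 of 5, miR-142a-3p, listed at 0. The 2 miRNA of glial reaction, miR-21a-5p and miR-146a-5p, summed to 18030 to 23288 CPM in WT and 14759 to 15933 CPM in TgAD libraries. Whether these differences have a part in the results below was not tested.

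The levels of the guides overlapped between genotypes, while fewer reads of each 5p arm were counted in TgAD than in WT neurons. The genotypes were compared with the quasi-likelihood test of edgeR, TgAD against WT, and p values were adjusted by Benjamini-Hochberg over the 496 miRNA that passed a filter on low counts. A miRNA was called changed at the cutoffs of the study, a log2 fold change over 0.6 in size with an adjusted p under 0.1. At these cutoffs 33.1% of the tested miRNA were called, 17.3% lower and 15.7% higher in TgAD neurons. The levels of WT and TgAD libraries did not overlap for 63.1%, and TgAD lay lower for 32.5%. With 2 libraries per genotype, an exact permutation test of a single value cannot give a two-sided p below 0.33.

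miR-107-3p, the guide of the Pank1 hairpin, was the most abundant arm of the family. It was read 1389 and 2455 times in WT 1 and WT 2 and 1871 and 3112 times in TgAD 1 and TgAD 2. These correspond to 591 and 843 CPM in WT and 682 and 773 CPM in TgAD libraries. Both TgAD libraries lay between the WT libraries. Mean levels (± SD, n = 2) were 717 ± 178 CPM for WT and 727 ± 65.0 CPM for TgAD. TgAD differed from WT by 0.021 ± 0.23 (SE) on the log2 scale (edgeR adjusted p = 0.968), and its 95% interval corresponded to TgAD levels between 0.688 and 1.5 times those of WT. The sign of so small a value depended on the scaling, and scaled by total counts it was -0.24 (adjusted p = 0.594 by edgeR), while the median over all tested miRNA moved from 0.03 to -0.23. On that scale miR-107-3p made up 671 and 892 RPM in WT and 678 and 647 RPM in TgAD libraries.

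miR-103-3p, the guide that the Pank2 and Pank3 hairpins have in common, was read 116 and 166 times in WT 1 and WT 2 and 160 and 223 times in TgAD 1 and TgAD 2. Its level was 49.4 and 57.0 CPM in WT and 58.3 and 55.4 CPM in TgAD libraries. The genotypes overlapped and all 4 libraries lay close together. Mean levels (± SD, n = 2) were 53.2 ± 5.40 CPM for WT and 56.9 ± 2.02 CPM for TgAD. TgAD differed from WT by 0.095 ± 0.23 (SE) on the log2 scale (edgeR adjusted p = 0.797), and the 95% interval of the TgAD level ran from 0.723 to 1.58 times that of WT. Scaled by total counts, the value was -0.16.

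miR-107-3p outnumbered miR-103-3p in every library, although miR-103 has more loci. miR-107-3p made up 92.3% (95% exact binomial interval 90.8 to 93.6) and 93.7% (92.7 to 94.6) of the reads of both guides in the WT libraries. In the TgAD libraries its share was 92.1% (90.9 to 93.3) and 93.3% (92.4 to 94.1). The share does not depend on the scaling, and its mean was 0.26 percentage points lower in TgAD neurons (two-sided exact permutation test over 2 and 2 libraries, p = 0.667). The intervals leave out any amplification error, and the sources used here do not mention molecular identifiers. Because miR-103-3p reads have 2 placements, the share may not be that of the molecules.

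**Figure D1:**
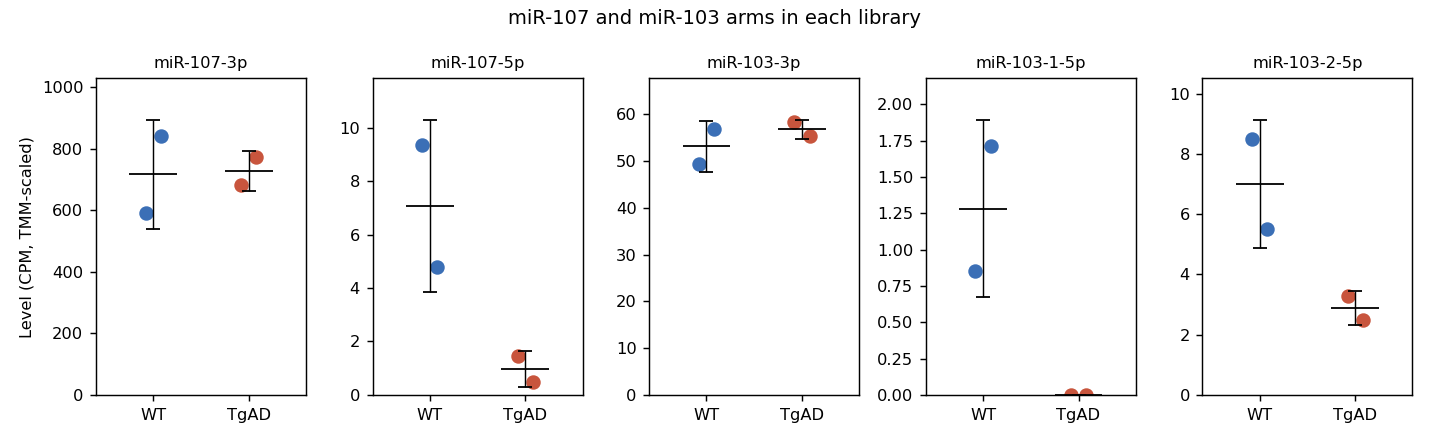
Level of each arm of the family in CPM (TMM-scaled, each panel with its own axis from 0) in the 2 WT and 2 TgAD libraries, with points for libraries, a long line for the mean and bars for the SD. The genotypes overlap for miR-107-3p and miR-103-3p, while for the 3 5p arms both TgAD libraries lie below both WT libraries.

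miR-107-5p, the passenger arm of the Pank1 hairpin, was read 22 and 14 times in WT 1 and WT 2 and 4 and 2 times in TgAD 1 and TgAD 2. The levels were 9.36 and 4.81 CPM in WT and 1.46 and 0.497 CPM in TgAD libraries, so that the lower WT library lay above both TgAD libraries. Mean levels (± SD, n = 2) were 7.08 ± 3.22 CPM for WT and 0.977 ± 0.679 CPM for TgAD. The arm passed the filter on low counts only through its WT libraries, so that it had to differ in this direction to be tested, and its place past the cutoffs is given as a description. TgAD differed from WT by -2.89 ± 0.68 (SE) on the log2 scale (edgeR adjusted p = 0.0294), and with no filter by -2.93 (edgeR adjusted p = 0.000304). By the reads alone, 6 in TgAD against 36 in WT libraries, the TgAD level was 0.13 times that of WT with an exact 95% counting interval of 0.0446 to 0.311. Under the column names of the normalized table it was read 4 and 22 times in WT and 2 and 0 times in TgAD, and it did not pass the filter. Of the 89 tested miRNA with 20 to 100 reads over the 4 libraries, 10.1% were called lower. The cutoffs were not passed without the first WT library (-2.34, adjusted p = 0.141) and without the second TgAD library (-2.19, adjusted p = 0.121), where the lone library of a genotype is assumed to vary like the others.

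miR-103-2-5p, the passenger arm of the Pank2 hairpin, was read 20 and 16 times in WT 1 and WT 2 and 9 and 10 times in TgAD 1 and TgAD 2. Its level was 8.51 and 5.49 CPM in WT and 3.28 and 2.49 CPM in TgAD libraries, with no overlap between genotypes. Mean levels (± SD, n = 2) were 7.0 ± 2.13 CPM for WT and 2.88 ± 0.561 CPM for TgAD. It too passed the filter only through its WT libraries and had to differ to be tested. The difference was -1.28 ± 0.46 (SE) on the log2 scale, just past the cutoffs as a description (edgeR adjusted p = 0.0910, and 0.0997 with no filter). The cutoffs were not passed when any 1 of the 4 libraries was left out, with log2 fold changes between -1.58 and -0.93 and adjusted p values between 0.144 and 0.545, and with DESeq2 (-1.30, adjusted p = 0.346).

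miR-103-1-5p, the passenger arm of the Pank3 hairpin, was read 2 times in WT 1, 5 times in WT 2 and in neither TgAD library. It did not pass the filter on low counts. From the reads alone, 0 in TgAD against 7 in WT libraries, the exact 95% counting interval allows a TgAD level of up to 0.54 times that of WT. Since miR-103-1-5p and miR-103-2-5p share all bases but the first, a read of either arm that starts at its second base cannot be assigned to 1 of them.

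**Figure D2:**
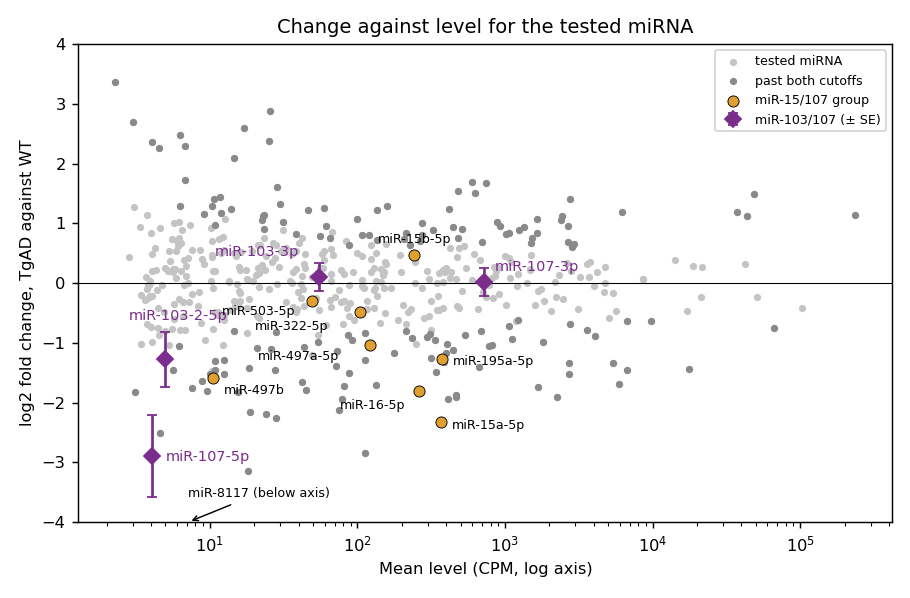
log2 fold change of TgAD against WT (vertical axis) against the mean level in CPM (horizontal log axis) for the 496 tested miRNA, with the 4 tested arms of the family as diamonds with their standard errors and the miR-15 group (with miR-497b) as yellow circles. The guides lie at the zero line, miR-107-5p at -2.89 and miR-103-2-5p at -1.28, and miR-8117, whose TgAD libraries hold 0 reads, lies below the axis.

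The arms of a hairpin were next compared within each library, where depth and scaling cancel. miR-107-5p made up 1.56% (95% exact binomial interval 0.980 to 2.35) and 0.567% (0.310 to 0.950) of the reads of both miR-107 arms in the WT libraries. In the TgAD libraries it made up 0.213% (0.0582 to 0.545) and 0.0642% (0.00778 to 0.232). The 4 libraries thus spread widely within each genotype too, and the intervals of the second WT and first TgAD library overlap. On the log2 scale the ratio of 5p to 3p reads averaged -6.72 ± 1.04 for WT and -9.74 ± 1.23 for TgAD (± SD, n = 2), a difference of -3.02 (two-sided exact permutation test, p = 0.33, the smallest that this design allows).

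The 5p arms of both miR-103 hairpins together made up 15.9% (10.3 to 23.1) and 11.2% (7.09 to 16.6) of the miR-103 reads in the WT libraries. In the TgAD libraries they made up 5.33% (2.46 to 9.87) and 4.29% (2.08 to 7.75). The genotypes did not overlap. The log2 ratio averaged -2.69 ± 0.413 for WT and -4.32 ± 0.231 for TgAD (± SD, n = 2), a difference of -1.63 (two-sided exact permutation test, p = 0.33). With miR-103-2-5p alone the difference was -1.36 with the same p. These were 3 of 4 ratios and shares compared in this way, and the adjusted p values do not go below 0.33 either. The miR-103 percentages stand well above those of miR-107 in each library, but their base is the miR-103-3p count, which depends on how reads with 2 placements were counted.

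**Figure D3:**
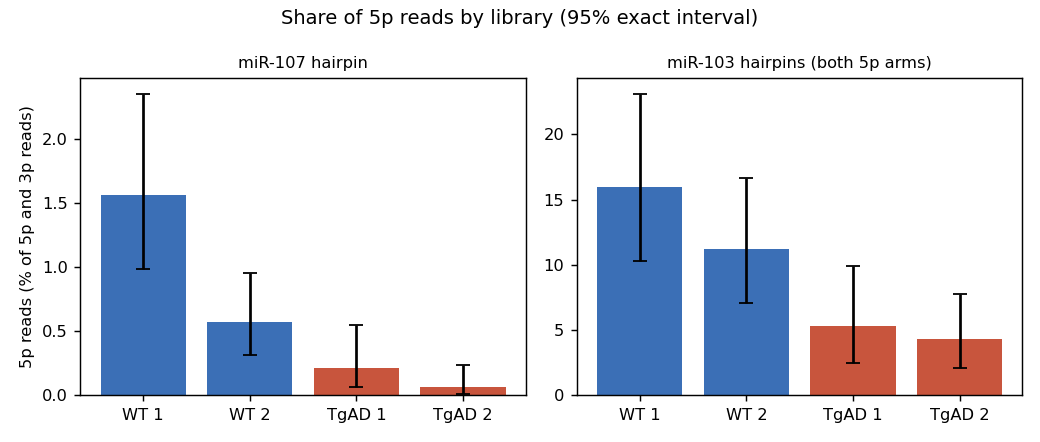
Reads of the 5p arm as a percentage of 5p and 3p reads in each library (bars, axes from 0) for miR-107 and for miR-103 with both 5p arms summed, with 95% exact binomial intervals that cover counting error only. The TgAD libraries hold the 2 lowest values in each panel, 0.213% and 0.0642% for miR-107 and 5.33% and 4.29% for miR-103.

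Summed over all 3 hairpins, the 5p arms came to 44 and 35 reads in WT 1 and WT 2 and to 13 and 12 reads in TgAD 1 and TgAD 2. The guides were read 1505 and 2621 times in WT 1 and WT 2 and 2031 and 3335 times in TgAD 1 and TgAD 2. The family as a whole took between 0.0696% and 0.0965% of the reads of a library, nearly all of them guides.

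To see how often the arms of a hairpin diverged, all miRNA with both arms tested were paired by name, which gave 138 hairpins. In each the arm with fewer reads was set against the other. The log2 fold change of the lesser arm minus that of the greater had a median of -0.04 with quartiles of -0.72 and 0.80, and it was negative for 70 of the 138. For miR-107 it was -2.92, a value whose low side was a condition for the pair to be tested, so that its place among the 138 is not compared. Of these hairpins, 10 differed by more than 2. The lesser arms as a group were called lower for 22 and higher for 21 hairpins. Among the 26 hairpins whose lesser arm had at most 100 reads, it had the lower log2 fold change in 13. These pairs are a description over miRNA of the same 4 libraries, and they hold only hairpins whose arms both passed the filter. miR-103 is not among them, since its 5p arms are named by locus.

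**Figure D4:**
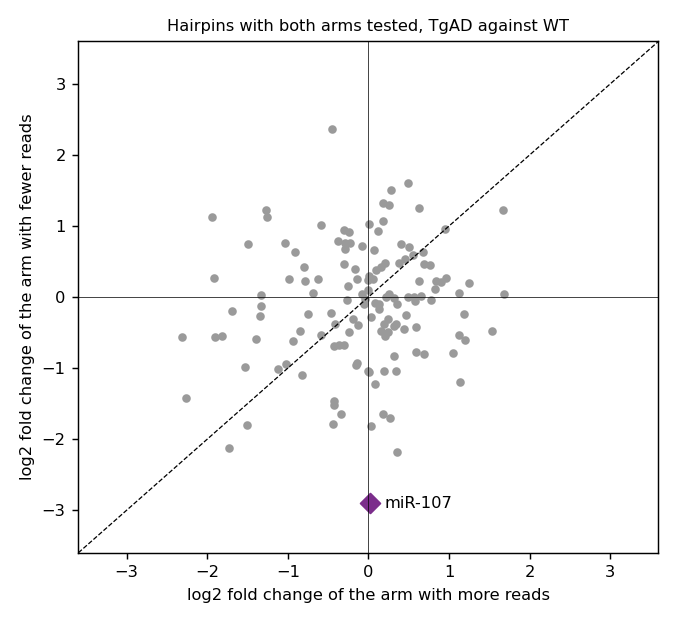
log2 fold change of TgAD against WT for the arm with fewer reads (vertical axis) against that for the arm with more reads (horizontal axis), 1 point for each of 138 hairpins, with the dashed line where the arms change equally. miR-107, the diamond, has its greater arm at 0.02 and its lesser arm at -2.89, having passed the filter on low counts only through the WT libraries.

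miR-103 and miR-107 are commonly grouped with miR-15, miR-16, miR-195 and miR-497, here called the miR-15 group, whose guides hold the letters AGCAGC at the start and are known as repressors of cell cycle genes such as cyclins. In RefSeq, 13 of the 1675 matched mature sequences, or 0.776%, hold AGCAGC within bases 1 to 7. miR-103-3p and miR-107-3p hold it from base 1 and the others from base 2, so that the seeds of the 2 sets are offset by 1 base. Of a list of 9 further members, 8 were tested, and 5 were called lower and 0 higher in TgAD neurons, with 3 not called, where 17.3% of all tested miRNA were called lower (median log2 fold change -1.16 over the list and 0.03 over all tested miRNA). miR-497b, 1 of the 5, does not hold the letters, and without it 4 of 7 were lower (median -1.04). With total counts as library size 6 of the 8 were lower, and calls of lower miRNA over all 496 rose from 86 to 122.

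miR-15a-5p was read 1574 and 1641 times in WT 1 and WT 2 and 434 and 361 times in TgAD 1 and TgAD 2, a log2 fold change of -2.32. miR-16-5p was read 970 and 1172 times in WT 1 and WT 2 and 428 and 316 times in TgAD 1 and TgAD 2, a log2 fold change of -1.80. In both, every TgAD library lay far under every WT library. The log2 fold changes of miR-195a-5p and miR-497a-5p, which come from 1 cluster on chromosome 11, were -1.28 and -1.04, and that of miR-497b was -1.59. miR-497b, at bases 70234763 to 70234786 of the minus strand, lies next to miR-497a-5p, at 70234730 to 70234751 of the plus strand. The called members are thus not all independent of one another. miR-16-5p has 2 loci, and whether it and miR-15a-5p are independent was not tested. The adjusted p values of the 5 called members lay between 0.00934 and 0.0240 (edgeR). Not called were miR-15b-5p at 0.46, miR-322-5p at -0.48 and miR-503-5p at -0.30, with adjusted p values between 0.157 and 0.427, and miR-195b was listed at 0 in every library.

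The guides of the family therefore made up a different share of the pool of miRNA with these letters. The other 11 arms that hold AGCAGC summed to 2061 and 2130 CPM in WT and 1030 and 871 CPM in TgAD libraries. Among them, miR-195b, miR-6342, miR-6353 and miR-6419 had 0 reads in every library. miR-103-3p and miR-107-3p summed to 640 and 900 CPM in WT and 740 and 829 CPM in TgAD libraries. Their share of the whole was 23.7% and 29.7% in WT and 41.8% and 48.8% in TgAD libraries, a share that no scaling changes. It is given as a description, since the list was drawn up with results of these data known.

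**Figure D5:**
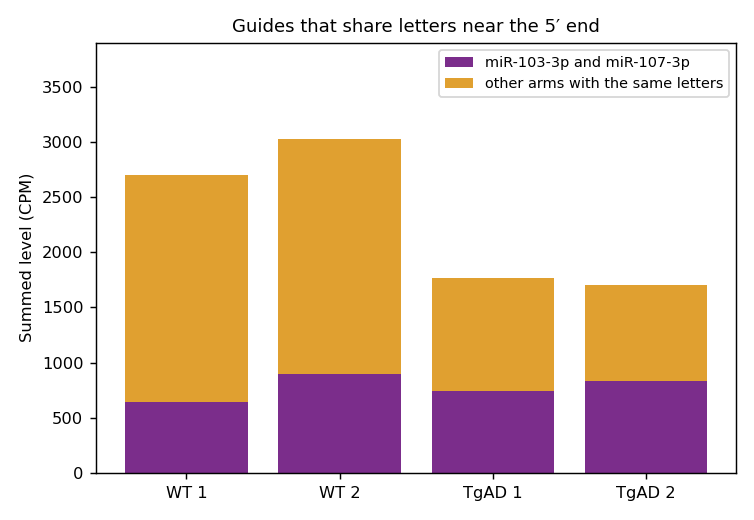
Summed level in CPM (stacked bars, axis from 0) of miR-103-3p and miR-107-3p, below, and of the other 11 arms that hold the same letters near the 5′ end, above, in each library. The lower part spans 640 to 900 CPM with the genotypes overlapping, while the upper part is 2061 and 2130 CPM in WT and 1030 and 871 CPM in TgAD libraries.

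Because miR-107 is known to target BACE1, it was set beside 11 other miRNA for which this is known from the literature. Of these, 7 were tested, and 2 were called lower, 2 higher and 3 not, against 33.1% called among all tested miRNA. miR-29c-3p was read 106 and 99 times in WT 1 and WT 2 and 18 and 42 times in TgAD 1 and TgAD 2 (log2 fold change -2.19, edgeR adjusted p = 0.0104), and miR-195a-5p, named above, is on this list too. miR-298-5p was read 2449 and 3544 times in WT 1 and WT 2 and 4932 and 8142 times in TgAD 1 and TgAD 2, with a log2 fold change of 0.76. miR-328-3p was read 3014 and 3138 times in WT 1 and WT 2 and 5944 and 8331 times in TgAD 1 and TgAD 2, with a log2 fold change of 0.84. Both were called higher with TMM and RLE scaling, but with total counts as library size their log2 fold changes were 0.49 and 0.58 with adjusted p values of 0.178 and 0.121, and neither was called. On that scale miR-29a-3p was called lower at -0.68 (adjusted p = 0.0843), so that the list held 3 lower and 0 higher in place of 2 and 2. With TMM, miR-29a-3p at -0.43 (adjusted p = 0.165), miR-186-5p at 0.01 (adjusted p = 0.978) and miR-339-5p at 0.01 (adjusted p = 0.976) were not called, like miR-107-3p. The other members could not be tested. miR-9-5p, which is encoded at 3 loci, was listed at 0, miR-29b-3p, at 2 loci, had 2 reads over the 4 libraries, and miR-124-3p and miR-188-3p had 14 and 16. No mRNA was measured, so these values say nothing of Bace1 itself.

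The counts of miRNA with several loci bear on the level of miR-103-3p. Of the tested miRNA in RefSeq, 17 have a mature sequence at more than 1 locus, and their median level was 262 CPM, against 66.7 CPM for the 424 with 1 locus. Of the 17, 58.8% lay over 100 CPM, against 44.1% of the 424. These are only the miRNA that passed the filter, out of 53 listed names with more than 1 locus, and miR-9-5p and miR-29b-3p did not pass it. Levels of such guides varied widely. miR-181a-5p and miR-30c-5p, whose 3p arms are named by locus, had WT means of 12.7 and 3.97 CPM. Those 3p arms had higher WT means, 5297 CPM for miR-181a-1-3p, 164 CPM for miR-181a-2-3p, 26.1 CPM for miR-30c-1-3p and 557 CPM for miR-30c-2-3p. miR-128-3p, whose 5p arms are so named, went the other way, with a WT mean of 25660 CPM. Its arms miR-128-1-5p and miR-128-2-5p had WT means of 28.5 and 31.1 CPM. How the counting acted on miR-103-3p was not tested.

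The tested miRNA whose profiles over the 4 libraries came nearest to those of the guides were found by the Euclidean distance between log2 CPM values, each taken as a deviation from the miRNA's own mean. Nearest to miR-107-3p were miR-7068-3p, miR-344b-3p and miR-7a-2-3p, at distances of 0.088, 0.10 and 0.12. miR-7a-2-3p, from 1 of the miR-7 hairpins, was read 257 and 463 times in WT 1 and WT 2 and 341 and 524 times in TgAD 1 and TgAD 2. In CPM its TgAD libraries (124 and 130) lay between its WT libraries (109 and 159), as for miR-107-3p. Nearest to miR-103-3p were miR-191-5p, miR-669c-5p and miR-423-5p, at 0.11, 0.13 and 0.14. miR-191-5p, an abundant miRNA, was read 8019 and 11094 times in WT 1 and WT 2 and 10324 and 15968 times in TgAD 1 and TgAD 2. The guides were 0.29 apart from each other, and 15 miRNA came nearer to miR-107-3p and 42 nearer to miR-103-3p than that. Over 4 libraries such likeness describes flat profiles, and 11.3% of the tested miRNA had log2 fold changes under 0.1 in size, as both guides had.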

How the data were processed

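Small RNA of cortical neurons from 2 WT and 2 TgAD embryos was sequenced. The authors mapped adapter-trimmed reads to GRCm38 with Bowtie2 without mismatch, counted them on mature miRNA of miRBase with HTSeq-count, and deposited whole read counts without normalization, 1 table per library; tool versions are not given in the sources used here. The deposited normalized table holds a signal, counts divided by a size factor per column; 100% of its values were whole multiples of 1 read within 0.001 reads, and the reads so recovered were used only in the comparison of columns and in 1 alternative chosen after seeing the data.

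The counts were tested in R 4.3.3 with edgeR 4.0.16 and limma 3.58.1: TMM, filterByExpr, quasi-likelihood test with genotype as the only factor, Benjamini-Hochberg adjustment over the 496 tested miRNA. A standard error is the log2 fold change divided by the square root of F. Depth was the sum of counts, and intervals cover counting error only. The procedure was tested on simulated counts. Arm ratios and shares were compared by exact permutation tests. Alternatives were RLE, total counts, no filter, at least 10 reads in every library, DESeq2 1.42.0, the robust option, a replicate block and leaving out each library. Named miRNA were the members, those of the related lists that were called and up to 4 others of each by level, and the 3 nearest to each guide. Members and lists were chosen with earlier results of these data known. Sequences were from RefSeq, which matched 1675 of 1966 names and all 5 members, and figures were made with matplotlib 3.10.9 in Python 3.11.15.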

Additional observations from a re-analysis of the deposited data

How the results depend on the processing

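At 2070204 to 4811010 reads per library the 5p arms rest on 7 to 55 reads each, which limits their fold changes. With total counts as library size, 122 miRNA were called lower and 43 higher, against 86 and 78 with TMM, and the guides turned negative, to -0.24 for miR-107-3p and -0.16 for miR-103-3p on the log2 scale. miR-107-3p was also -0.017 with no filter on low counts and -0.0044 with DESeq2; neither guide was called under any alternative. With reads recovered from the normalized table, columns by name, miR-107-3p was at -0.36, miR-103-3p at -0.38 and miR-103-2-5p at -0.58, none called, miR-107-5p was not tested, and 0 of 480 miRNA were called by edgeR (54 at an unadjusted p under 0.05); which naming is right was not tested. miR-103-2-5p was at -1.30 and not called with DESeq2, and neither tested 5p arm could be tested when 10 reads were required of every library. miR-107-5p was called under the other 6 alternatives that kept all 4 count tables, with adjusted p from 0.000250 to 0.0386 (edgeR or DESeq2). Except with no filter and with DESeq2, it was tested there only through its WT libraries. Its calls are therefore given as a description.

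With 1 library left out, the log2 fold change ranged from -3.80 to -2.19 for miR-107-5p (not called without WT replicate 1 or TgAD replicate 2), from -1.58 to -0.93 for miR-103-2-5p (not called without any of the 4), from -0.20 to 0.29 for miR-107-3p and from -0.040 to 0.19 for miR-103-3p, and 118 to 143 miRNA were called. The arm ratio of miR-107 ranged from -3.89 to -2.15, and with 1 read added to each arm no arm ratio moved by more than the SD between libraries.

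The replicate numbers are shared by the genotypes, but nothing in the labels pairs them, and deviations of same-numbered libraries correlated at 0.216 over the 496 miRNA. With the replicate block 188 miRNA were called in place of 164, and the call of no member changed (miR-107-5p -2.86, miR-103-2-5p -1.25, miR-107-3p 0.040 and miR-103-3p 0.097).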

Other observations

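The last column of the deposited normalized table, named for the second TgAD library, matched none of the 4 count tables, with at most 4.45% of its 674 recovered counts equal to any of them. Its recovered total was 1926952 reads, and it held 290 reads of miR-107-3p, 35 of miR-103-3p, 8 of miR-103-2-5p and 0 of miR-107-5p. The count table of the second TgAD library held 3112, 223, 10 and 2 reads of these arms.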
